A study of Homo sapiens with 20 samples.

Results

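The HOX cluster genes were examined in LNCaP cells, an androgen-responsive human prostate cancer line derived from a lymph node metastasis. Every gene whose symbol is HOXA, HOXB, HOXC or HOXD followed by a number was taken from both count tables, with HOXB13 left out. This gave 39 of 57773 rows, or 38 symbols, because HOXC4 has 2 gene identifiers. They comprise 11 HOXA, 9 HOXB, 10 HOXC and 9 HOXD rows. RNA-seq of total RNA was performed in 20 samples that fall into 10 groups. In the siRNA experiment, LNCaP cells were transfected for 2 days with 20 nM of an siRNA against EHMT1 (siEHMT1) or a nontarget control (siNTC), with 2 samples each. EHMT1 is a histone methyltransferase that acts mainly on lysine 9 of histone H3. In the second experiment, 4 stable LNCaP lines carried a tet-inducible EHMT1 construct that was WT or carried arginine in place of lysine (K450R, K451R, or both in K450RK451R). The lines were left with vehicle (Veh) or treated with 0.25 µg/mL doxycycline (Dox) for 2 days, and each line is 1 stable population, so the line and its EHMT1 sequence cannot be told apart. No empty-vector line was analysed here, so an effect of doxycycline alone cannot be told apart from that of the induced EHMT1.

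HOX genes encode homeodomain transcription factors that give cells their position along the body axis. Their order along each cluster follows the order in which they are used from head to tail. Silent HOX genes are held by Polycomb complexes and active ones by trithorax complexes, and HOX proteins bind DNA together with TALE partners of the PBX and MEIS families. In the adult prostate and in prostate cancer a subset of HOX genes of the later paralog groups stays active, and the transcript of HOXC6 is one of those measured in a urine test for prostate cancer.

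The 2 columns of each stable-line condition differed by no more than counting noise, their chi-square over its degrees of freedom being 0.995 to 1.017, against 61.6 for the siNTC and 13.4 for the siEHMT1 samples. The columns were therefore summed to 1 library a condition, and the 4 lines serve as the replicates of the Dox effect. The total counts were 5593400 to 12438006 in the siRNA samples and 8436791 to 12407739 in the summed libraries. EHMT1 itself was at 87.8 and 83.6 CPM in siNTC and at 29.2 and 30.7 CPM in siEHMT1 (CPM, counts scaled to the TMM-adjusted library size). It was at 71.7 to 88.9 CPM in the 4 Veh and 662.5 to 842.1 CPM in the 4 Dox libraries, so the labels hold for the targeted gene. Among markers of prostate luminal cells, 7 of 7 passed the filter on low counts in both tables, and KLK3 was at 2917 to 3125 CPM in the siRNA and 7349 to 8322 CPM in the stable-line libraries. The basal keratin KRT5 and TP63, the leukocyte gene PTPRC and the neuroendocrine genes CHGA and CHGB had 0 counts in every library. The basal keratin KRT14 had 2 to 18 counts, and the neuroendocrine marker SYP had 2 to 25 and passed the filter in the siRNA samples (1.38 to 2.00 CPM). Of the fibroblast collagens, COL1A1 was at 15.3 to 40.8 CPM, COL3A1 had 1 to 17 counts and COL1A2 had 0.

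Among the genes taken, expressed ones were found in 3 of the 4 clusters, and most of their reads came from HOXC. HOXB13, a HOXB gene, was left out, so the shares and sums of HOXB are without it. A gene is called expressed in a table where edgeR's default filter kept it, and at the floor where it had 3 counts or fewer in every library of that table. In the siRNA samples 10 rows were expressed, 7 lay between and 22 were at the floor. In the stable lines 9 were expressed, 8 lay between and 22 were at the floor. Of the 11 genes expressed in either table, 8 were expressed in both, namely HOXA5, HOXA6, HOXA10, HOXB6, HOXB9, HOXC6, HOXC9 and HOXC13. HOXC12 passed in the siRNA samples alone, and HOXC10 in the stable lines alone. The 2 tables come from separate experiments and were normalized separately, so levels are set side by side with no test between them.

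**Figure D1:**
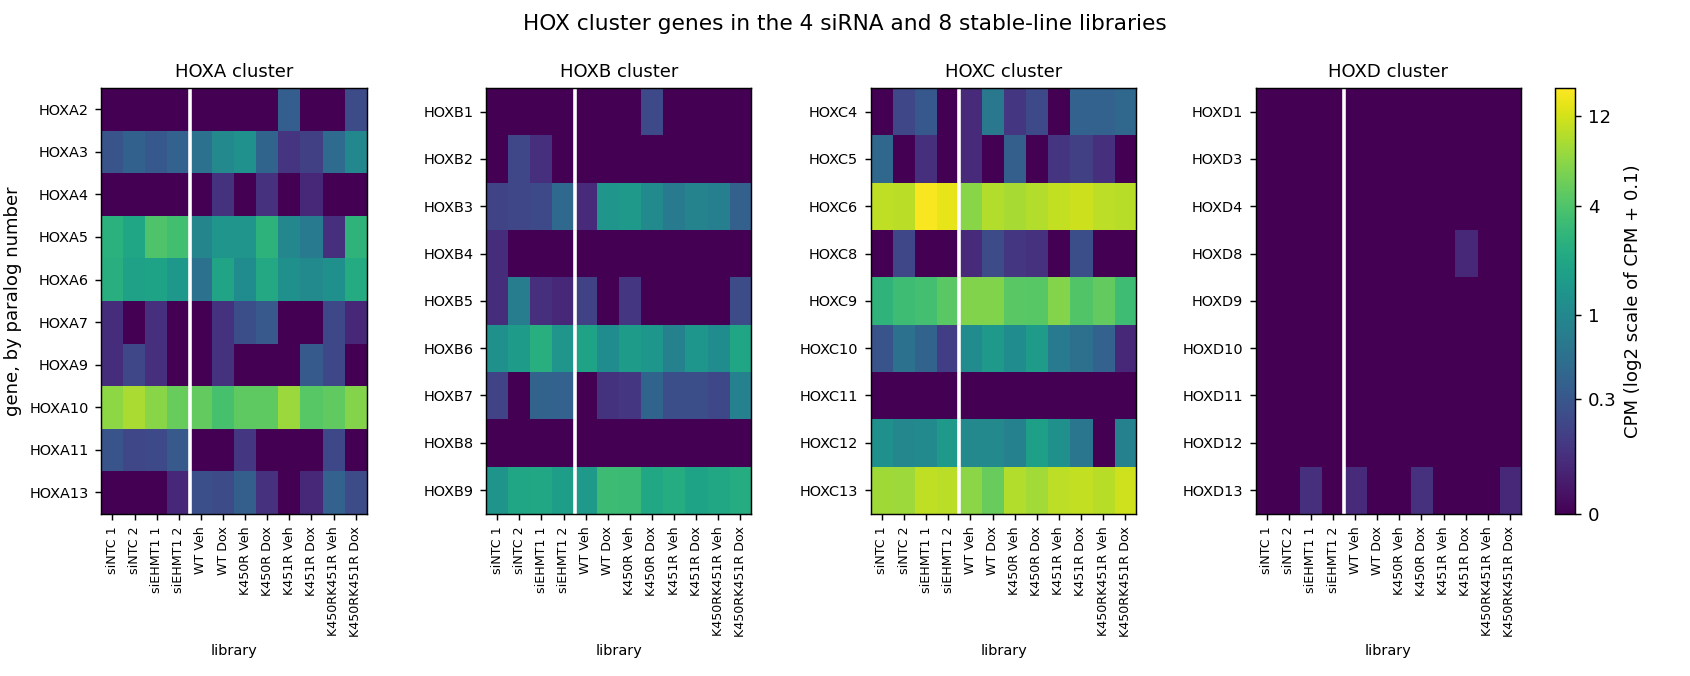
Level of the HOX genes reported here (rows, by cluster and paralog number) in each of the 4 siRNA samples and 8 stable-line libraries (columns, split by a white line), as CPM on a log2 color scale after adding 0.1. Bright rows are HOXC6, HOXC13, HOXC9 and HOXA10, and the HOXD panel is dark in every library.

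Without HOXB13, the HOX rows held 4977 counts in all libraries. Of these, 62.9% were on HOXC, 25.8% on HOXA, 11.2% on HOXB and 0.101% on HOXD. HOXC6, HOXC13, HOXA10 and HOXC9 took 71.2% of them. The summed HOX level was 39.9 to 51.2 CPM in the siRNA samples and 33.8 to 45.1 CPM in the stable-line libraries. HOXC held 54.7% to 64.5% of these HOX counts in each siRNA sample and 57.9% to 70.4% in each stable-line library. Among the genes taken, its place above the other clusters thus held in each of the libraries.

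Levels are compared between genes only after division by length, here the exon bases that no other annotated gene covers, in GENCODE release 44 on GRCh37. In siNTC, HOXC13, a gene known for hair and nail formation, had 3.65 ± 0.040 CPM per kb (SD, n = 2) and HOXC6 had 3.48 ± 0.10. HOXA10, which acts in uterine and blood development, had 2.87 ± 0.44 and HOXA6 2.75 ± 0.62 CPM per kb. The next levels were 2.03 ± 0.29 for HOXC9 and 1.32 ± 0.24 for HOXA5. In siNTC, HOXC13 lay above 63.6% and HOXC6 above 61.2% of 19404 coding genes ranked by CPM per kb of their whole exon length. This ranking includes coding genes with no reads. HOXB6 had 0.80 ± 0.14, HOXB9 0.64 ± 0.18 and HOXC12 0.34 ± 0.052 CPM per kb. The ranges of the 2 siNTC samples overlapped between the neighbours HOXA10 and HOXA6, and HOXB6 and HOXB9. For HOXA6 the length matters, since only 59.9% of its exon bases are its own and the rest are shared with HOXA-AS3 and the gene ENSG00000272801, of which HOXA-AS3 had 0 to 3 counts in the siRNA samples. By the whole exon length HOXA6 stood one place lower, behind HOXC9.

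HOXC lies on chr12:54332615-54449814 (GRCh37), 117.2 kb on the plus strand, between CALCOCO1 and SMUG1. Its genes with the most reads do not all lie side by side. HOXC13 (chr12:54332615-54340328) and HOXC12 (chr12:54348687-54352740) at the 5′ end had up to 151 and 19 counts. HOXC11 (chr12:54366910-54371427), the next gene, had 0 counts in each of the 12 libraries, which together allow a level of up to 0.0253 CPM (3 counts in 118650251, counting error only). HOXC10 (chr12:54378849-54384063), a gene of lumbar motor neurons and the hindlimb, had 2 to 4 counts in the siRNA samples and 1 to 15 in the stable lines. HOXC9 (chr12:54388679-54397121), known for thoracic motor neuron identity, had 17 to 56 counts in the siRNA samples and 36 to 75 in the stable lines. HOXC8, which follows, was at the floor. HOXC6 (chr12:54384408-54424607) had 50 to 173 and 69 to 140 counts. HOXC5 had up to 5 and HOXC4 up to 6 counts, and the second HOXC4 identifier had 0 in every library. An unread HOXC11 thus lay between neighbours with reads on both sides.

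HOXA lies on the minus strand of chromosome 7, between SKAP2 and EVX1. Among its expressed genes were HOXA5 (chr7:27180671-27183300), known for lung development, HOXA6 (chr7:27185015-27190222) and HOXA10 (chr7:27210224-27219880). HOXA7 and HOXA9 lie between HOXA6 and HOXA10. HOXA7 was at the floor in both tables, and HOXA9 had up to 1 count in the siRNA samples and up to 4 in the stable lines. Only 37.5% of the exon bases of HOXA7 are its own, against 73.0% for HOXA9 and 73.7% for HOXA10. Reads on shared bases may be missing from these counts. HOXA10 had 44 to 74 and 33 to 83 counts in the same libraries. HOXA3 had 2 to 5 counts in the siRNA samples and 1 to 13 in the stable lines. HOXA11 reached 4 counts and HOXA13, a gene of the genital tract and limb tip, 4 counts. HOXA2 and HOXA4 were at the floor.

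The promoters of this stretch are shown because genes below the filter lie there between expressed ones. They are the 250 bases before the annotated start, from RefSeq on GRCh38.p14, 5′ to 3′ on the minus strand, with each CG pair in capitals. HOXA6 and HOXA10 were expressed and HOXA7 and HOXA9 were not. HOXA10 has 2 starts in the RefSeq table, of which the one nearer to HOXA9 is shown.
HOXA6, chr7:27147775-27148024: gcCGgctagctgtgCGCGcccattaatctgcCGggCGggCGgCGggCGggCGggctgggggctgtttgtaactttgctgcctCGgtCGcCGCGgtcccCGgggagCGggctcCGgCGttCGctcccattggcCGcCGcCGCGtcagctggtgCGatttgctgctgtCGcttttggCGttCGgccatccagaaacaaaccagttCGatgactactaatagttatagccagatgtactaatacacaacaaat
HOXA7, chr7:27156676-27156925: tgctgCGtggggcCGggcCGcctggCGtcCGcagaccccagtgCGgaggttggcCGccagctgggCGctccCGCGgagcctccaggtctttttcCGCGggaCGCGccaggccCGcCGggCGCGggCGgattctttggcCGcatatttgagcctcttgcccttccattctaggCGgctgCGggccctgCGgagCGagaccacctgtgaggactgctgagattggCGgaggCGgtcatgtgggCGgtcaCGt
HOXA9, chr7:27165538-27165787: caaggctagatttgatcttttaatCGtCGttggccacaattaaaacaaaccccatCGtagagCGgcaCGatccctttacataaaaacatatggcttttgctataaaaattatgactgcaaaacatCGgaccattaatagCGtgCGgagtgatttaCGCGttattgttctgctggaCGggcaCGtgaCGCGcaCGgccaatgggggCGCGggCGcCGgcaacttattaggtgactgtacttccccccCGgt
HOXA10, chr7:27174321-27174570: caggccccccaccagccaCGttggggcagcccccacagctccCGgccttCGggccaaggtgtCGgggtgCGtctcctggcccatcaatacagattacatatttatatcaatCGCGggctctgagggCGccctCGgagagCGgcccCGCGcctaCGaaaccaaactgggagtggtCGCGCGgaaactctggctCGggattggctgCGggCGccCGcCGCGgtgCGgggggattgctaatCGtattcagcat
The CG pairs numbered 27 for HOXA6, 28 for HOXA7, 20 for HOXA9 and 24 for HOXA10. Of all 34796 RefSeq promoters of this length, 17.7%, 15.9%, 32.5% and 23.7% held at least as many. A RefSeq promoter was matched for 20 HOX genes, with 26 distinct windows, and HOXC4 and HOXC5 share 1. Their median was 19.5 CG pairs against 11 over all promoters, and 20 of the 26 were at or above that median. The 3 promoters of expressed genes (HOXA6 and both of HOXA10) held 19 to 27, and the 12 promoters of genes at the floor in both tables held 4 to 31 with a median of 22. The ranges of the expressed and the silent genes thus overlapped, over few expressed genes. The letters TATAAA, searched on both strands, were in 5 of the 26 windows (19.2% against 10.8% of all promoters), HOXA9 and both HOXA10 windows among them. The letters TGATTNAT, a HOX and PBX type of motif also searched on both strands, were in 2 (7.69% against 2.48%), those of HOXD11 and HOXA2.

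The 9 HOXB genes taken lie on chr17:46605888-46710934, 105.0 kb on the minus strand, between SKAP1 and PRAC1. This span leaves out HOXB13 and is thus not that of the whole HOXB cluster. HOXB6 (chr17:46673113-46682354) had 8 to 23 counts in the siRNA samples and 7 to 25 in the stable lines, and HOXB9 (chr17:46698518-46703720) had 10 to 21 and 18 to 30. HOXB3 had 1 to 6 and 1 to 12 counts, HOXB7 up to 5 and 11, and HOXB5 up to 4 and 3. HOXB1, HOXB2, HOXB4 and HOXB8 were at the floor. The summed level of the 9 HOXB genes was 3.12 to 5.32 CPM in the siRNA and 3.63 to 6.54 CPM in the stable-line libraries. PRAC1, known for its activity in prostate, is the nearest other coding gene on 1 side of these 9 genes. It was well read in the same libraries, at 60.7 to 71.8 and 180.2 to 211 CPM.

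HOXD lies on chr2:176957449-177055635, 98.2 kb on the plus strand, between EVX2 and MTX2. It had 5 counts in all, of which HOXD13 had 4 and HOXD8 had 1, and each of HOXD1, HOXD3, HOXD4, HOXD9, HOXD10, HOXD11 and HOXD12 had 0. Their 8 RefSeq promoters held 4 to 31 CG pairs with a median of 22. EVX2 had 0 counts, and MTX2, a mitochondrial import gene on the other side, was at 13.6 to 27.7 CPM. Of the noncoding genes of the clusters, 17 were in the tables and 2 passed the filter in each. HOXD-AS1, which overlaps HOXD1, had 2 to 7 counts in the siRNA samples and 5 to 26 in the stable lines. HOXC13-AS had 7 to 23 and 0 to 12, HOTAIRM1 7 to 15 and 2 to 20, and HOXC-AS1 0 to 10 and 8 to 24. HOTAIR reached 3 counts in 1 siRNA sample and had 0 in the other libraries.

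With siEHMT1, no HOX gene passed an adjusted p of 0.05. HOXC6 had 109 and 50 counts in siNTC and 153 and 173 in siEHMT1, or 10.3 and 9.88 against 15.97 and 13.8 CPM. Both siEHMT1 samples were above both siNTC samples. The fitted log2 difference of HOXC6 was 0.56 (SE 0.19, 95% interval 0.17 to 0.95), with an adjusted p of 0.311 by edgeR's quasi-likelihood test over 14532 genes. HOXA5 was at 2.55 and 1.98 CPM in siNTC and 4.07 and 3.51 CPM in siEHMT1, a log2 difference of 0.70 (SE 0.34, adjusted p = 0.534). HOXC13 was at 8.03 and 7.91 against 10.3 and 9.82 CPM (log2 0.34, SE 0.21, adjusted p = 0.636). HOXC9 was at 2.74 and 3.36 against 3.55 and 4.47 CPM (log2 0.43, SE 0.32, adjusted p = 0.704). These 4 genes were the ones whose siEHMT1 samples both lay above the siNTC samples, 4 of 10 members against 19.9% of all genes tested.

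HOXA10 went the other way. It was at 6.99 and 8.70 CPM in siNTC and 6.68 and 5.03 CPM in siEHMT1, with a log2 difference of -0.41 (SE 0.25, adjusted p = 0.633). It was the only member with both siEHMT1 samples below both siNTC samples, 1 of 10 against 19.8% of all genes. HOXA6, its neighbour among the expressed genes, was at 2.46 and 1.78 against 1.88 and 1.44 CPM, and its groups overlapped (log2 -0.42, SE 0.42). The groups also overlapped for HOXB6, HOXB9 and HOXC12, with log2 differences of 0.19 to 0.43 and adjusted p of 0.826 to 0.9497. HOXC10, not tested here, had 3 and 3 counts in siNTC and 4 and 2 in siEHMT1.

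**Figure D2:**
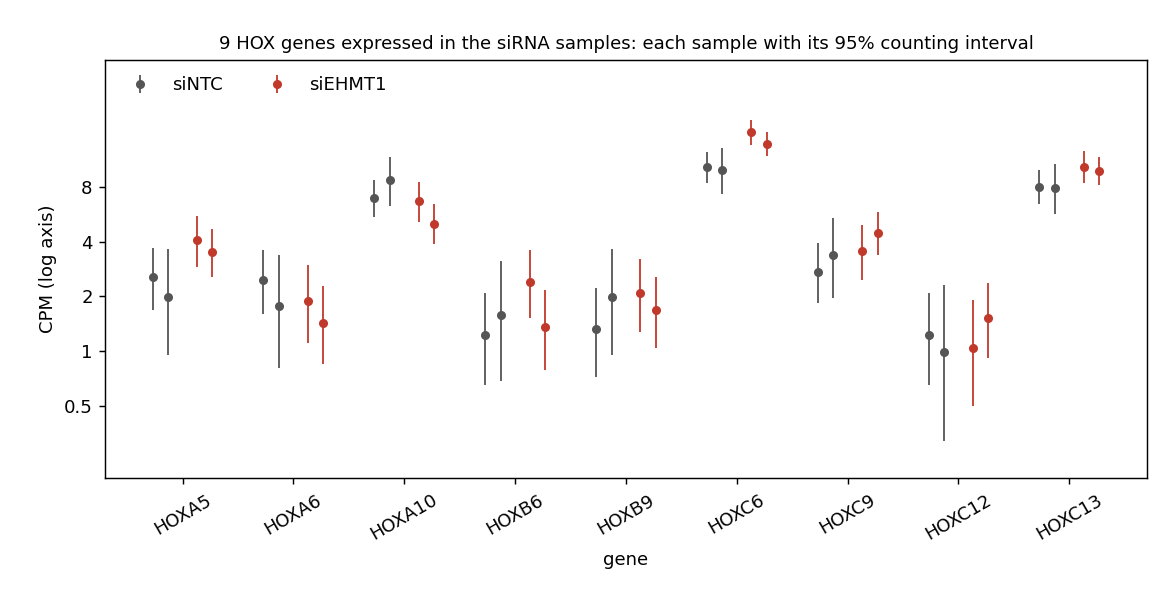
CPM (log axis) of 9 HOX genes expressed in the siRNA samples, with 1 point a sample and its 95% exact Poisson interval, which covers counting error only. HOXC6 and HOXA5 lie higher in both siEHMT1 samples (red) than in both siNTC samples (gray), and HOXA10 lies lower.

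At an adjusted p of 0.05, 0 of 10 members were called, against 0.131% of all genes tested. At an unadjusted p of 0.05 it was HOXC6 alone, 1 of 10 against 9.58%, which is near the background. At the cutoff of the study, 2-fold and an unadjusted p of 0.05, 0 members were called higher (0.874% of all genes) and 0 lower (0.406%). By limma-voom 0 members passed the adjusted threshold as well. DESeq2 gave an adjusted p for 3 of the 10 members (HOXA10, HOXC13 and HOXC6), of which 0 passed, and none for the other 7. The median log2 difference of the 10 members was 0.29, with 8 above 0 and 2 below, beside a median of -0.0021 and 49.6% above 0 over all genes. The summed HOXC level was 23.1 and 23.1 CPM in siNTC and 31.7 and 29.8 CPM in siEHMT1. The HOXA sum was 13.7 to 14.4 CPM in siNTC and 12.4 to 14.0 CPM in siEHMT1, and its groups overlapped. With 2 samples a group and counts of this size the 95% intervals were wide, for HOXC12 from -0.89 to 1.27 on the log2 scale.

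With Dox over the 4 lines, no HOX gene passed an adjusted p of 0.05 either, and the largest difference was that of HOXA5. In the WT line HOXA5 had 11 counts with Veh and 12 with Dox, or 0.93 and 1.35 CPM. The K450R line had 11 and 25 counts, or 1.36 and 2.67 CPM. For K451R the counts were 8 and 9 (0.97 and 0.73 CPM), and for K450RK451R they were 1 and 35 (0.10 and 2.71 CPM). Its Dox level was higher in 3 of 4 lines and lower in K451R. The fitted log2 difference was 1.19 (SE 0.46, 95% interval 0.25 to 2.12), with an adjusted p of 0.195 by edgeR's quasi-likelihood test over 14105 genes. It rested on the K450RK451R line, whose Veh library had a single HOXA5 count: without that line the log2 difference was 0.51 (adjusted p = 0.729).

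HOXA6, the neighbour of HOXA5, had 7 counts with Veh and 17 with Dox in the WT line and 9 and 20 in K450R. The K451R counts were 10 and 13, and those of K450RK451R 12 and 29. Its CPM was higher with Dox in WT, K450R and K450RK451R and lower in K451R, the same lines as for HOXA5. In K451R the ratio of Dox to Veh was 0.87 (95% counting interval 0.35 to 2.22) for HOXA6 and 0.75 (0.26 to 2.24) for HOXA5. Counting error alone thus covers no change there, and likewise for both genes in K450R, HOXA5 in WT and HOXA6 in K450RK451R. The log2 difference of HOXA6 was 0.84 (SE 0.39, 95% interval 0.046 to 1.64, adjusted p = 0.307), and it was 0.61 to 1.12 as each line was left out. The other members had log2 differences of -0.30 (HOXC9) to 0.15 (HOXC6), with adjusted p of 0.577 to 0.983. HOXC6 was higher with Dox in 3 of 4 lines, at 6.75 to 10.5 CPM in Veh and 9.28 to 11.4 in Dox.

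At an adjusted p of 0.05, 0 of 9 members were called, against 2.1% of all genes. At an unadjusted p of 0.05 it was HOXA5 and HOXA6, 2 of 9 against 14.4%. At the cutoff of the study HOXA5 was called higher, 1 of 9 against 0.227% of all genes, and 0 were lower (0.128%). Without K450RK451R, 0 members passed this cutoff, without K451R it was HOXA5 and HOXA6, and by DESeq2 it was 0 members. HOXA5 reached the level that the filter asks for in the Dox libraries of WT, K450R and K450RK451R, and with Veh in K450R alone. It was thus tested largely because of Dox libraries where it was high. Its call is therefore described and not taken as support for a Dox effect. The median log2 difference of the 9 members was 0.11, with 6 above 0 and 3 below, beside 0.0050 over all genes.

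Within each line there is 1 library a condition, so no test was made and a 2-fold ratio serves as a rule of size. The intervals of these ratios are exact binomial ones for counting error only. In WT, 2 of 9 members were at least 2-fold higher with Dox (1.67% of all genes) and 0 were lower (2.28%). These were HOXA6, with a ratio of 3.24 (95% interval 1.28 to 9.25), and HOXB9, which had 18 and 29 counts and a ratio of 2.15 (1.16 to 4.11). In K450R, 0 members were 2-fold higher (2.38%) or lower (2.25%), the nearest being HOXA5 with a ratio of 1.97 (0.93 to 4.43) and HOXA6 with 1.92 (0.84 to 4.79). In K451R, 0 were higher (2.02%) or lower (1.94%). HOXA10 had 64 and 54 counts there and a ratio of 0.57 (0.39 to 0.82), and HOXC9 a ratio of 0.64 (0.43 to 0.96). In K450RK451R, HOXA5 was higher (2.9% of all genes), with a ratio of 26.7 (4.49 to 1085) that rests on the single Veh count. HOXC10 was lower in that line (1.93%), with 4 and 1 counts and a ratio of 0.19 (0.0039 to 1.93), so counting error alone covers no change. Whether the Dox effect of a gene differs between lines could not be tested with 1 library a condition.

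**Figure D3:**
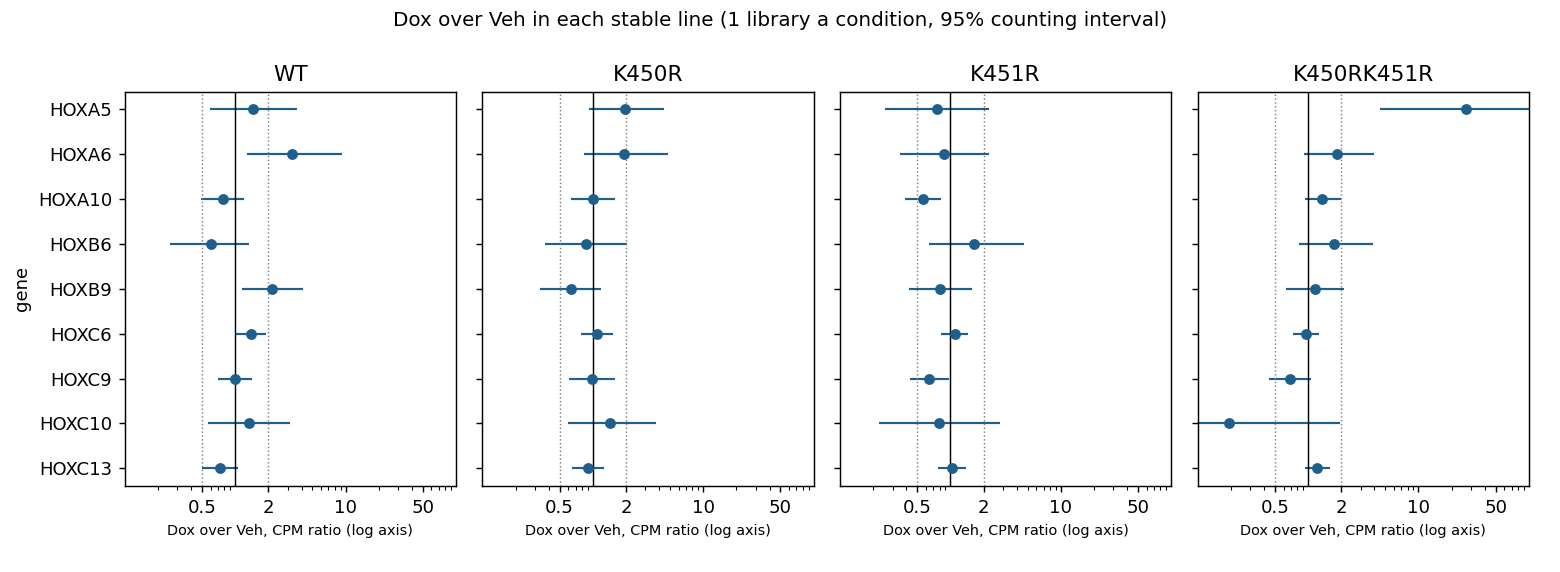
Ratio of Dox to Veh CPM (log axis) of the 9 HOX genes tested in each stable line, with its 95% counting interval. The solid line marks no difference and the dotted lines a 2-fold difference, and the intervals of HOXA5 and HOXC10 in K450RK451R run past the axis. HOXA5 in K450RK451R stands farthest to the right at 26.7.

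Members below the filter also had single-line differences, on few counts. The share of such differences among all genes below the filter was not computed, so these are described only. HOXB3 had 1 and 12 counts in WT, whereas the Veh and Dox counts were 12 and 10 for K450R, 6 and 11 for K451R and 8 and 5 for K450RK451R. HOXC12 had 0 and 11 counts in K450RK451R, and 7 to 16 counts in the other 6 libraries. With the Veh library of K450RK451R set at 3 counts the HOXC12 ratio was 2.8, and its exact 95% interval starts at 1.92. HOXB7 had 2 and 11 counts in K450RK451R, a ratio of 4.20 (0.92 to 39.0).

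Between the 4 lines, fitted with treatment as a term, no HOX gene passed an adjusted p of 0.05, and HOXC10 and HOXC13 had the lowest adjusted p. HOXC10 was at 1.10 CPM with Veh and 1.47 with Dox in the WT line and at 1.11 and 1.60 CPM in K450R. It was at 0.73 and 0.57 CPM in K451R, and at 0.41 and 0.077 CPM when both lysines were changed. Both libraries of WT and of K450R lay above those of K451R and K450RK451R. Only the WT and K450R libraries reached the level that the filter asks for, so HOXC10 was tested because of the lines where it was high. Its contrast between the lines is therefore described and not taken as support for a difference. The fitted lines spanned 2.58 log2 units (adjusted p = 0.155 by edgeR's quasi-likelihood F test of the 3 line terms). HOXC13 was at 6.92 and 5.07 CPM in WT and at 9.25 and 8.32 CPM in K450R. The K451R libraries were at 10.1 and 10.4 CPM, and those of K450RK451R at 9.64 and 11.7 CPM. Both WT libraries were the lowest, and the lines spanned 0.82 log2 units (adjusted p = 0.147). Without WT the other lines spanned 0.29 for HOXC13 (adjusted p = 0.768).

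At an adjusted p of 0.05, 0 of 9 members differed between the lines, against 3.05% of all genes. At an unadjusted p of 0.05 it was HOXC10 and HOXC13, 2 of 9 against 15.2%, and with a 2-fold span as well it was HOXC10 alone, 1 of 9 against 1.98%. By DESeq2, 0 members passed this last rule, HOXC13 alone had an unadjusted p under 0.05, and 0 of the 9 members had an adjusted p. HOXC10 passed the filter on low counts only when all lines or all but K451R were fitted. HOXA5 spanned 1.36 and HOXC9 0.62 log2 units, with adjusted p of 0.578 and 0.555. For HOXC9 the fitted level was highest in WT, at 6.33 and 6.31 CPM (Veh and Dox), though the highest single library was the Veh library of K451R. The K450R libraries were at 4.44 and 4.37 CPM, those of K451R at 6.44 and 4.15 CPM and those of K450RK451R at 4.87 and 3.33 CPM. The summed HOXC level was 22.4 to 29.1 CPM over the 8 libraries.

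**Figure D4:**
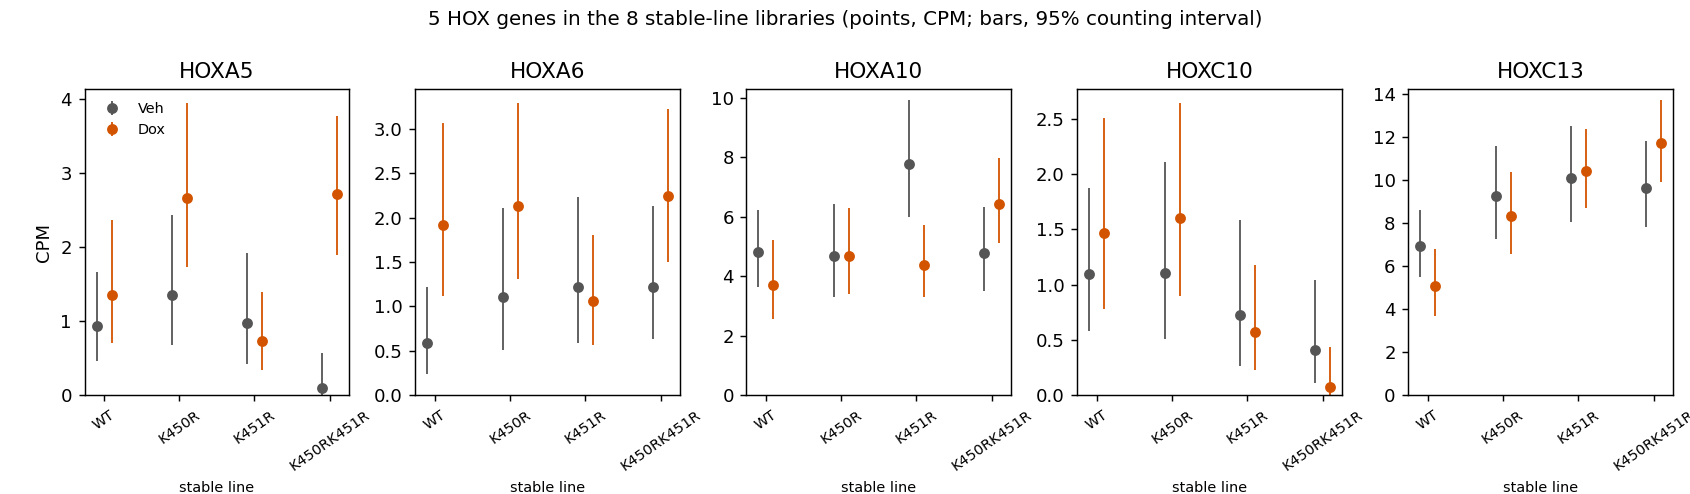
CPM of HOXA5, HOXA6, HOXA10, HOXC10 and HOXC13 in the 4 stable lines with Veh (gray) and Dox (orange), 1 library a point, with its 95% counting interval. HOXC13 is lowest in both WT libraries, HOXC10 is lowest in K450RK451R, and HOXA5 in K450RK451R is at 0.10 CPM with Veh and 2.71 CPM with Dox.

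Few of the genes that act with or upstream of the HOX genes passed a test. Over all genes tested, 0.131% were called with siEHMT1, 2.1% with Dox and 3.05% between the lines. In lists of this size 0 calls lie near these shares. Among the TALE partners, 7 of 9 were tested and 0 passed an adjusted p of 0.05 in any of the 3 tests. MEIS1, a cofactor that stabilizes HOX binding, had 64 and 26 counts in siNTC and 47 and 66 in siEHMT1. In the WT line it had 18 counts with Veh and 15 with Dox. The other lines had 15 and 20 (K450R), 20 and 51 (K451R) and 9 and 58 (K450RK451R). Its Dox ratio was 4.92 (2.42 to 11.3) in K450RK451R, where that of HOXA5 was 26.7, and 1.71 (1.00 to 3.02) in K451R, where that of HOXA5 was 0.75. Over the 4 lines the log2 difference was 0.92 (adjusted p = 0.16).

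All 19 Polycomb genes were tested and 0 passed in any test. EZH2, which writes the repressive mark on lysine 27 of histone H3, was at 20.3 to 32.2 CPM in all libraries. Of the list of trithorax and related genes, 10 of 11 were tested. KDM6B was the only one called, 1 of 10 with Dox against 2.1% of all genes and 1 of 10 between the lines against 3.05%. It stands on the list as a related gene that removes the mark that EZH2 writes. KDM6B fell with Dox (log2 -0.36, adjusted p = 0.0115), with a ratio of Dox to Veh of 0.65 to 0.97 in the 4 lines, and it also differed between the lines (adjusted p = 0.0108). Of the upstream regulators 4 of 9 were tested in the siRNA samples and 5 in the stable lines. CYP26A1, which breaks down retinoic acid, differed between the lines (adjusted p = 0.0014), 1 of 5 against 3.05% of all genes. It was at 14.7 and 15.7 CPM in WT and 5.50 to 11.3 CPM in the others, and had 1 to 4 counts in the siRNA samples. The CDX genes had 1 count in all. Of the 9 genes listed as flanking the clusters, with HOXB taken without HOXB13, 6 were tested and 0 passed in any test. The 2 noncoding genes tested in each table did not pass either. Of the 7 luminal markers, 2 rose with Dox, against 2.1% of all genes called in either direction, TMPRSS2 (log2 0.22, adjusted p = 0.0177) among them. Log2 differences with Dox were -0.20 for KRT8 (adjusted p = 0.0603), -0.16 for KRT18 and -0.11 for KLK2, and the median of the list was 0.021. KRT8 differed between the lines (adjusted p = 0.0329), 1 of 7 against 3.05% of all genes. Their part in the HOX values was not tested.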

How the data were processed

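RNA-seq was measured in 4 siRNA samples and 16 stable-line columns of LNCaP cells. The deposited values are raw counts (whole reads per Ensembl gene) in 2 tables, which the authors left unnormalized. A stranded total RNA kit was used. The submitters' processing notes name FastQC 0.11.9, STAR 2.7.2, featureCounts 1.6.4 and hg19. The gene annotation and whether counting used strand are not given in the sources used here. Reads of overlapping and antisense genes could thus be dropped or counted for the other gene. This limits calls at or near the floor for genes with few exon bases of their own, such as HOXC5 (32.7%), HOXA7 (37.5%), HOXD1 (39.9%) and HOXA4 (52.2%). Column names gave the sample of each column. Nothing in the labels says that samples of a group came from separate cultures. The p-values of the siRNA comparison thus measure only the spread between these samples. Those of the stable lines rest on the spread left after line and treatment, so a Dox effect particular to a line counts as spread.

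After the default edgeR filter and TMM scaling, counts were tested with its quasi-likelihood method (R 4.3.3, edgeR 4.0.16) over all genes, with Benjamini-Hochberg adjustment. A first fit held the 4 siRNA samples, and another the 8 summed libraries with line and treatment as terms. The 95% intervals of single libraries (exact Poisson) and of ratios (exact binomial) and the floor of 3 counts cover counting error only. Gene positions came from GENCODE release 44 lifted to GRCh37, in which 55538 identifiers were found. Alternatives were DESeq2 1.42.0, limma-voom (limma 3.58.1), upper-quartile scaling, no filter, the legacy quasi-likelihood version, a replicate block, and leaving out each sample or line. The whole exon length as divisor was added after the data were seen. The procedures were tested on simulated counts. The members and lists were chosen with earlier results of these data known. Members were named with values where they passed the filter in either table, and with counts where they exceeded the floor. The values of some genes are not reported here. List genes were named where they passed a test or were among the highest or most studied ones.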

Additional observations from a re-analysis of the deposited data

Results flagged for a closer look

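HOXA10 was at 7.78 CPM in the Veh library of K451R and at 4.69 to 4.81 CPM in the other 3 Veh libraries. Its gap to the nearest of them was 0.96 of the whole range of the 4, past Dixon's 95% critical value for 4 samples. Chance alone marks about 1 in 20 such groups, and 18 groups (9 genes under Veh and under Dox) were looked at. The Dox library of K451R was at 4.39 CPM, and without this line the HOXA10 log2 difference of Dox against Veh was 0.064 in place of -0.18.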

How the results depend on the processing

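At an adjusted p of 0.05, 0 HOX genes were called in the siRNA comparison and between the lines under every setting of edgeR and by limma-voom. DESeq2 also called 0, but it gave an adjusted p for only 3 of 10 members in the siRNA comparison, 2 of 9 for Dox and 0 of 9 between the lines. For Dox over the 4 lines this count was also 0, except that treating the unsummed columns as replicates with a replicate block gave 1, HOXA5 (log2 1.18, adjusted p = 0.0234, with 1928 genes called in all against 296). Those columns differ by counting noise only.

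In the siRNA samples the replicate block called 127 genes in all against 19, and 0 HOX genes at the adjusted threshold. Same-numbered samples did not deviate together (r = -0.0023, rho = 0.029), so they share only a number. Of the log2 differences of the members reported here under other settings, 87 kept direction and call in the siRNA samples and 3 reversed, 77 kept both for Dox, 8 reversed and 1 passed the threshold, and all 78 of the line spans kept their call, where a DESeq2 value without an adjusted p was counted by direction alone. As each siRNA sample was left out, HOXC12 ranged from -0.12 to 0.41, HOXB6 from -0.0085 to 0.81 and HOXB9 from -0.087 to 0.49. As each line was left out, the Dox difference of HOXA10 ranged from -0.44 to 0.064, of HOXC13 from -0.15 to 0.080, of HOXB6 from -0.14 to 0.44 and of HOXB9 from -0.24 to 0.36. HOXC10 with Dox was at -0.16 by DESeq2 and -0.051 by limma-voom in place of 0.11. HOXC6 with siEHMT1 kept its direction throughout (0.45 to 0.66 as samples were left out, adjusted p of 0.169 to 1.00 over all settings). The cause of these changes was not tested.

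By a threshold of 1 CPM in at least 1 library, 10 HOX genes were expressed in the siRNA samples, the same genes as by the filter, and 12 in the stable lines, with HOXA3, HOXB3 and HOXC12 added. Depth limits these results: most members had under 30 counts a library, and a gene at 3 counts stood at 0.232 to 0.593 CPM.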
